A study of Mus musculus with 6 samples.

Results

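Transfer RNAs for glutamate come in isoacceptors, which carry the same amino acid and differ in the anticodon, and Glu-TTC is the isoacceptor with the anticodon TTC. The fragments described here are the tRNA-derived small RNAs (tDRs) of mouse brain whose listed parent tRNAs are all glutamate tRNAs, with at least 1 Glu-TTC parent and at least 1 parent that is a mature tRNA. They were chosen by those parent names alone, and 22 of the 591 tDR IDs in the deposited table met the rule. All other glutamate IDs with a mature parent, 19 in number, belonged to the isoacceptor Glu-CTC. The table named 0 Glu-TTC IDs under precursors only and 0 shared with another amino acid.

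The brains came from C57BL/6 mice, an inbred strain widely used in ageing work, and gave 3 small RNA libraries at an age of 3 months and 3 at 22 months. No genotype change, transgene or treatment is named for either age. Whether the 3 libraries of an age came from 3 different mice is not stated, so p-values measure only the spread between these samples. The labelled tissue could not be checked against marker genes, because the table holds tRNA fragments only. The 6 libraries held between 44156 and 96130 listed tags. The smallest count a library lists ranged from 8 to 17 tags, so a 0 was read as a level below that minimum. Libraries of an age are named by the numbers 1, 2 and 3 in their labels. In whole tissue, fewer cells of a type and less RNA per cell cannot be told apart.

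A tRNA folds into a cloverleaf whose acceptor stem pairs its 5′ and 3′ ends, and the sequence CCA is added to the 3′ end after transcription. Nucleases cut mature tRNAs in the loops, and the resulting pieces are found as stable small RNAs in many tissues, brain among them, often more under stress. Glutamate tRNAs are a common source of such fragments. In a protein-coding message the TTC anticodon reads glutamate codons. Many of the IDs described here list the same parent tRNAs, so they may be pieces of the same molecules and are not independent genes. Whether their tags overlap cannot be seen without fragment sequences.

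The mature Glu-TTC parents of the 22 IDs have 3 sequences, and these are shown because their differences bear on which fragments can be told apart. Every ID but AS-tDR-009224 also lists at least 1 precursor, and some list Glu-CTC tRNAs. A mature Glu-TTC tRNA is therefore a possible source of each ID and not a known one. Only parent sequences are in the table, with none for the fragments themselves. Sequences are the deposited ones, with T for U. All 3 run for 75 bases with the anticodon at positions 34 to 36 and CCA at positions 73 to 75, counted from 1 at the 5′ end. Capitals mark the bases at which Glu-TTC-1 and Glu-TTC-2 differ from each other and those at which Glu-TTC-3 differs from both.
Glu-TTC-1: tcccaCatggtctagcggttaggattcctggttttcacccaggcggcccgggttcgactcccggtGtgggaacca
Glu-TTC-2: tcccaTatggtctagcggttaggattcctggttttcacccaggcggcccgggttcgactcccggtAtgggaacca
Glu-TTC-3: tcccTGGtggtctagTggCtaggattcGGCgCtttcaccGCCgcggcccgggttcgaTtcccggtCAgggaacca

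Glu-TTC-1 and Glu-TTC-2 differed at 2 of 75 positions, C6T and G66A from the first to the second. Positions 6 and 66 face each other in the acceptor stem, where bases 1 to 7 pair with bases 65 to 71, so the pair is C with G in Glu-TTC-1 and T with A in Glu-TTC-2. Glu-TTC-3 differed from each of them at 15 positions, the same 15 in both comparisons. Glu-TTC-1 was listed under 4 mature gene names, and Glu-TTC-2 and Glu-TTC-3 under 2 each. That is 8 in all, and the RefSeq annotation of GRCm38.p6 likewise holds 8 Glu-TTC genes. Names in the table are not tied to coordinates, so none are given.

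Parent names placed 5 IDs under Glu-TTC-1 alone, 6 under Glu-TTC-2 alone, 2 under both, 6 under Glu-TTC-3 alone and 3 under Glu-TTC-3 together with Glu-CTC. If IDs were assigned by exact sequence match, an ID under Glu-TTC-1 alone or Glu-TTC-2 alone has to cover position 6 or position 66, and an ID under both has to lie between positions 7 and 65. The 3 IDs shared with Glu-CTC had 1 stretch of at least 15 bases common to their parents, bases 1 to 18 of Glu-TTC-3. For each of the 3, every part of it of at least 15 bases also stands in a mature tRNA not listed for that ID. For AS-tDR-012861 these unlisted tRNAs include Glu-CTC-2, which holds the same 18 bases. For fragments of 15 bases or more, then, none of the 3 parent lists is that of a complete exact match. The rule for assignment is not given in the sources used here.

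**Figure D1:**
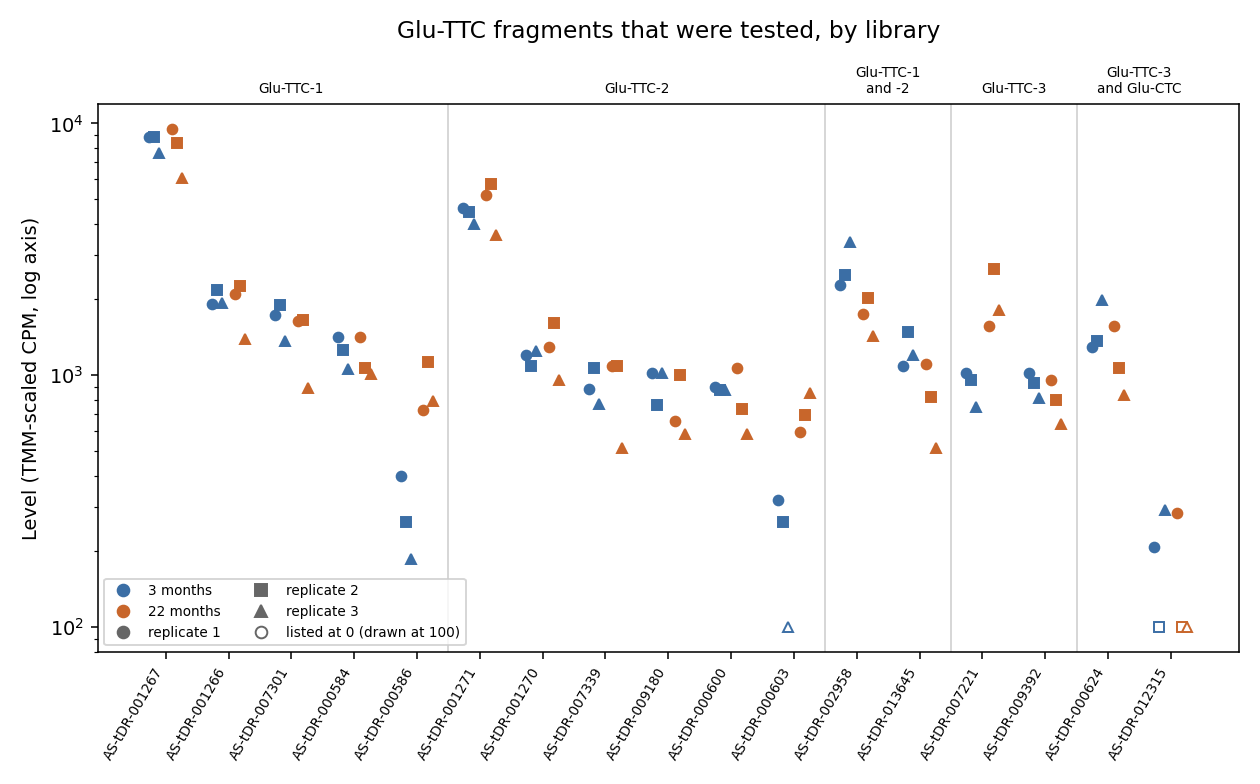
Level of each of the 17 tested Glu-TTC fragments in each library, in TMM-scaled CPM (log axis), grouped by parent tRNA, with 3 month libraries in blue, 22 month libraries in orange and open symbols for values listed at 0. For AS-tDR-000586, AS-tDR-000603 and AS-tDR-007221 every aged library is above every young one, for AS-tDR-002958 every aged library is below, and the other 13 overlap.

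The levels of 13 of the 17 tested Glu-TTC fragments overlapped between the ages, while 1 fragment of each of the 3 tRNA sequences was higher in every aged library than in any young one. Of the 22 IDs, 17 passed the filter on low counts and were tested, and 15 were listed above 0 in all 6 libraries. With edgeR's quasi-likelihood test, 0 of the 17 rose and 0 fell with age at a Benjamini-Hochberg adjusted p under 0.05, against a background of 6.61% called among 439 IDs tested, 4.78% higher and 1.82% lower. At an unadjusted p under 0.05, 2 were higher and 1 lower (edgeR), against 15.7% and 9.79% of all tested IDs, and DESeq2's test called 0 members, against 7.08% of IDs higher and 3.96% lower by that test. With 1 library left out, whichever it was, between 0 and 14 IDs of the table passed, against 29 with all 6. The median log2 difference was -0.10 over the 17 and -0.16 over all 439, and 0.09 and -0.01 over the IDs tested without 22 month replicate 3. The ages did not overlap for 3 members that were higher and 1 that was lower at 22 months. The same held for 19.4% and 20% of all tested IDs, so neither count stands above the table as a whole.

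The abundant fragments were those of Glu-TTC-1 and Glu-TTC-2. AS-tDR-001267 of Glu-TTC-1 ranked 19th of 591 IDs by mean level. Its CPM (tags scaled to a fixed total and by TMM, a correction for uneven composition) was 8854, 8814 and 7660 in replicates 1, 2 and 3 at 3 months and 9520, 8385 and 6090 at 22 months. The ages overlapped, with 22 month replicate 1 the highest and 22 month replicate 3 the lowest of the 6 libraries. The log2 difference between 22 and 3 months was -0.08 (SE 0.22; edgeR adjusted p = 0.853), and it turned positive when 3 month replicate 2 (0.02) or 22 month replicate 3 (0.15) was left out.

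AS-tDR-001271 of Glu-TTC-2, the next in abundance, stood at 4619, 4461 and 3997 CPM at 3 months and at 5178, 5741 and 3601 at 22 months. Again the aged libraries lay on both sides of the young ones, with replicate 3 below them and replicates 1 and 2 above. The log2 difference was 0.15 (SE 0.23; edgeR adjusted p = 0.702) and -0.06 with library size only. That scaling moves the median of all IDs by -0.18 on the log2 scale. AS-tDR-001266 and AS-tDR-007301 were the next most abundant of Glu-TTC-1, the first at 1918, 2176 and 1936 CPM and then 2103, 2265 and 1390. AS-tDR-007301 had 1742, 1893 and 1374 CPM at 3 months and 1645, 1665 and 890 at 22 months. Both overlapped between the ages, with log2 differences of -0.07 and -0.25 that did not pass (edgeR, adjusted p = 0.878 and 0.652).

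AS-tDR-000586, a less abundant fragment of the same Glu-TTC-1 parents, had a different course. Its tags numbered 25, 12 and 9 in the 3 month libraries and 54, 92 and 57 in the 22 month libraries. In CPM these were 400, 261 and 187 at 3 months and 728, 1126 and 793 at 22 months. The lowest aged library was above the highest young one, and the 9 tags of 3 month replicate 3 equal the smallest count that library lists. Mean levels were 283 ± 108 and 882 ± 214 CPM (SD, n = 3 each), 3.12-fold higher at 22 months. With a log2 difference of 1.63 (SE 0.37) it missed the threshold over all IDs (edgeR adjusted p = 0.057). It passed with DESeq2's size factors in the same test (adjusted p = 0.0473; 6.61% of all IDs higher and 3.42% lower there) and among IDs above 0 in all 6 libraries (adjusted p = 0.017), and not in the other 10 alternatives, where the adjusted p reached 0.191. In 7 of those 10 fits no ID of the whole table passed.

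Among the Glu-TTC-2 fragments, AS-tDR-000603 was the one whose aged and young libraries did not overlap. It had 20, 12 and 0 tags at 3 months and 44, 57 and 61 at 22 months. In 3 month replicate 3 the fragment was listed at 0, below a minimum of 9 tags. Its level was 320, 261 and 0 CPM at 3 months and 593, 698 and 848 at 22 months. Its log2 difference, 1.86, carried a standard error of 1.01 and missed the threshold (edgeR adjusted p = 0.296). Without 3 month replicate 3 it was 1.28 (SE 0.34; edgeR adjusted p = 0.156).

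For Glu-TTC-3 the higher fragment was AS-tDR-007221, listed under the 2 mature names and 1 precursor. The young libraries held 1023, 958 and 749 CPM and the aged ones 1564, 2632 and 1821. Every aged library was above every young one, and 22 month replicate 2 was the highest. Means were 910 ± 143 and 2006 ± 557 CPM (SD, n = 3 each), 2.2-fold higher at 22 months, and the log2 difference was 1.14 (SE 0.27; edgeR adjusted p = 0.0577). It passed among IDs above 0 in all 6 libraries only (adjusted p = 0.0233), of 12 alternatives, and lay between 0.89 and 1.39 on the log2 scale in all of them. In that restricted set 2 of 15 members rose and 0 fell, against a background of 13.1% and 9.31% of 290 IDs.

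**Figure D2:**
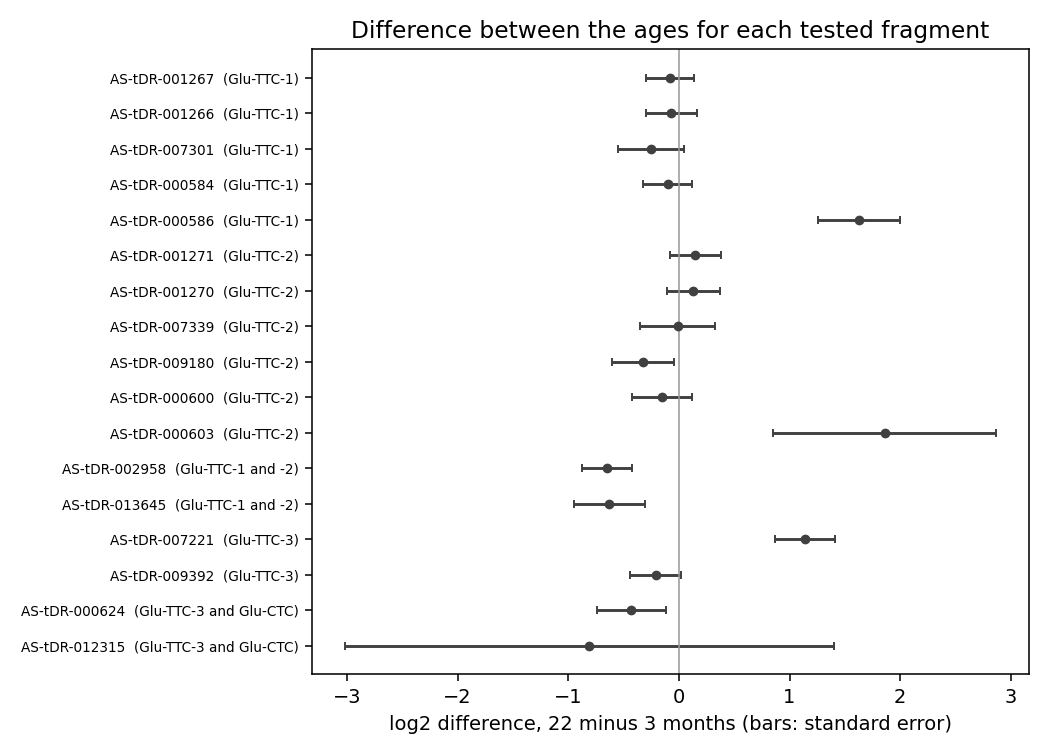
Log2 difference between 22 and 3 months for the 17 tested Glu-TTC fragments, with the standard error as bars, grouped by parent tRNA from top to bottom. Most lie within 0.5 of 0, and AS-tDR-000586, AS-tDR-000603 and AS-tDR-007221 lie above 1. Many of the bars span both signs, and the longest of them is that of AS-tDR-012315, listed at 0 in 3 libraries.

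The fragments common to Glu-TTC-1 and Glu-TTC-2 had lower means at 22 months. AS-tDR-002958, the third most abundant member, was at 2285, 2503 and 3372 CPM at 3 months and at 1753, 2020 and 1432 at 22 months. Every aged library lay below every young one. Means were 2720 ± 575 and 1735 ± 294 CPM (SD, n = 3 each), and the log2 difference was -0.65 (SE 0.23), short of the threshold (edgeR adjusted p = 0.14). Over 12 alternatives it stayed negative and its adjusted p lay between 0.0706 and 0.382. AS-tDR-013645, with the same parents, had 1087, 1480 and 1207 CPM at 3 months and 1106, 820 and 514 at 22 months. Here 22 month replicate 1 lay within the young range, and the log2 difference was -0.63 (SE 0.32; edgeR adjusted p = 0.278).

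The other 8 tested members overlapped between the ages and did not pass the test. Log2 differences ran from -0.43 for AS-tDR-000624, which Glu-TTC-3 shares with Glu-CTC, to 0.13 for AS-tDR-001270 of Glu-TTC-2, leaving aside AS-tDR-012315. AS-tDR-000584 of Glu-TTC-1 was at 1249 ± 181 and 1165 ± 218 CPM (SD, n = 3 each). The differences of AS-tDR-000584, AS-tDR-000600, AS-tDR-001270 and AS-tDR-007339 changed sign when 1 library was left out. AS-tDR-009392 of Glu-TTC-3, which has the same parents as AS-tDR-007221, was at 923 ± 106 and 798 ± 159 CPM (SD, n = 3 each). AS-tDR-012315, shared with Glu-CTC, had 13, 0 and 14 tags at 3 months and 21, 0 and 0 at 22 months, and its log2 difference of -0.81 had a standard error of 2.21. That value was -0.15 without 3 month replicate 3, and without 22 month replicate 1 the fragment was listed at 0 in both remaining aged libraries, where the fitted -6.34 is no bound.

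The 5 members that were not tested were listed in 1 or 2 libraries each, with few tags, and 4 of them belong to Glu-TTC-3 alone. AS-tDR-013797 had 38 tags and AS-tDR-009224 had 21, both in 22 month replicate 3 alone. AS-tDR-009224 is the member listed under mature names only, so its parents share all 75 bases, CCA included. AS-tDR-013677 had 12 and 12 tags in 3 month replicates 1 and 2. AS-tDR-015071 had 9 tags in 3 month replicate 2 and 13 in 22 month replicate 1, and AS-tDR-012861, shared with Glu-CTC, had 11 in 3 month replicate 3. Being listed at 0 elsewhere, these gave no fold change.

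Ratios of tags between 2 fragments with the same parents do not depend on how libraries are scaled. The reference was the most abundant fragment of Glu-TTC-1 and of Glu-TTC-2. For Glu-TTC-3 it was AS-tDR-009392, the other tested fragment with those parents. These ratios were chosen after the values were seen, and they are given with no test. The tags of AS-tDR-000586 came to 4.51%, 2.96% and 2.45% of those of AS-tDR-001267 at 3 months, and to 7.65%, 13.4% and 13% at 22 months. Those of AS-tDR-000603 came to 6.92%, 5.85% and 0% of AS-tDR-001271, and then 11.5%, 12.2% and 23.6%. AS-tDR-007221 had 100%, 102% and 92.3% of the tags of AS-tDR-009392 at 3 months and 163%, 331% and 285% at 22 months. These fragments took more tags relative to a sister fragment in every aged library than in any young one. They are the 3 members whose CPM was already higher in every aged library, so the ratios are no separate evidence. By contrast AS-tDR-001266 was at 23.9% ± 1.94 and 24% ± 2.65 of AS-tDR-001267 (SD, n = 3 each), and AS-tDR-000584 at 14.7% ± 1.16 and 14.7% ± 1.99. The remaining 5 ratios, 1 of Glu-TTC-1 and 4 of Glu-TTC-2, overlapped between the ages as well.

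**Figure D3:**
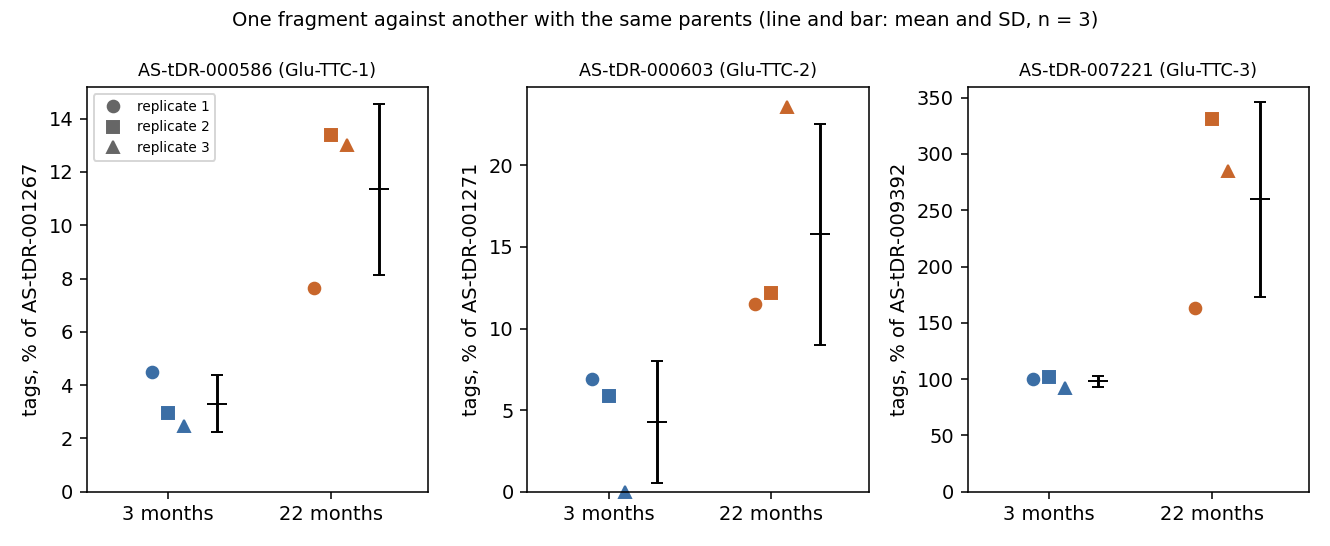
Tags of AS-tDR-000586, AS-tDR-000603 and AS-tDR-007221 as a percent of the tags of a fragment with the same parents, by library and age, with the mean and SD (n = 3) beside the points and an axis from 0 in each panel. All 3 panels show the 22 month points above the 3 month points, from 163% to 331% against 92.3% to 102% for AS-tDR-007221.

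Summed over all 22 IDs, Glu-TTC fragments kept a small share of the tags at both ages. They took 3.31%, 3.12% and 3.13% of listed tags in the 3 month libraries and 3.41%, 2.78% and 1.98% in the 22 month libraries. The young libraries lay close together, while the aged ones ran from above to below them. The means of 3.19% ± 0.107 and 2.72% ± 0.717 (SD, n = 3 each) differed by -0.464 percentage points (exact two-sided permutation test, p = 0.4, where 0.1 is the smallest that 3 against 3 allows). The difference was -0.0915 without 22 month replicate 3 and -0.807 without 22 month replicate 1. On the TMM scale the sums were 29930 ± 996 and 29583 ± 5414 CPM (SD, n = 3 each), lower at 22 months by less than the spread between libraries.

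Set against the other glutamate isoacceptor, the Glu-TTC share was lower in the aged libraries. Glu-TTC tags made up 33.8%, 37.1% and 35.8% of Glu-TTC plus Glu-CTC tags at 3 months, and 33.5%, 24% and 19.4% at 22 months. Replicate 1 at 22 months was next to the lowest young library, and the other two aged libraries were well below it. The means of 35.6% ± 1.67 and 25.6% ± 7.19 (SD, n = 3 each) differed by -9.94 percentage points, lower in 3 of 3 aged libraries than in any young one. The exact two-sided permutation test gave p = 0.1, the smallest it allows, and 0.2 after Benjamini-Hochberg adjustment over the 2 share comparisons. In these values the 3 IDs shared with Glu-CTC count wholly as Glu-TTC. With only the IDs whose parents are all Glu-TTC, the difference was -9.33 percentage points. Glu-CTC tags went from 5.8% ± 0.622 to 7.94% ± 1.04 of listed tags (SD, n = 3 each). Among the 17 tested IDs of Glu-CTC, none but 1, which fell, passed edgeR's adjusted threshold of 0.05, against 6.61% of all tested IDs, and their median log2 difference was 0.65.

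**Figure D4:**
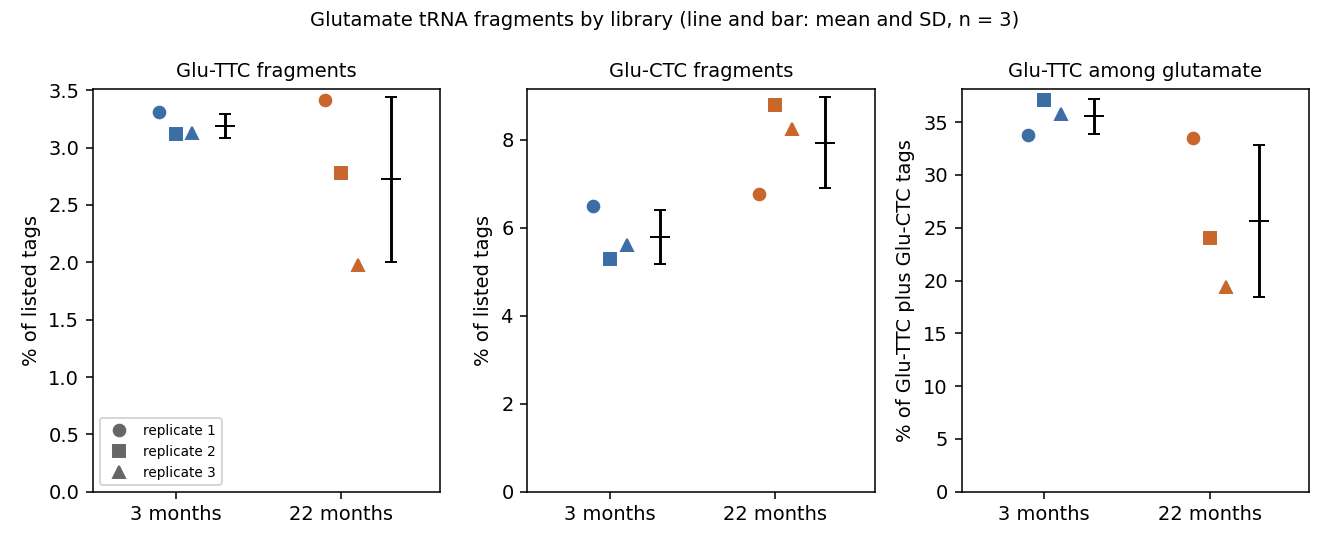
Share of listed tags taken by Glu-TTC fragments and by Glu-CTC fragments, and Glu-TTC tags as a percent of both, by library and age, with the mean and SD (n = 3) beside the points. The Glu-TTC share of listed tags overlaps between the ages, while its share of glutamate tags lies between 19.4% and 33.5% at 22 months and between 33.8% and 37.1% at 3 months. IDs shared with Glu-CTC count as Glu-TTC.

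Within the Glu-TTC tags, the parts taken by the 3 tRNA sequences moved by a few percentage points. IDs of Glu-TTC-1 alone took 45.6% ± 2.7 of them in young and 45% ± 1.86 in aged libraries (SD, n = 3 each). IDs of Glu-TTC-2 alone took 28.2% ± 1.04 and 31.3% ± 1.7, and those common to both took 13.3% ± 2.42 and 8.59% ± 0.215. Those of Glu-TTC-3 alone took 7.36%, 7.68% and 5.42% at 3 months and 8.25%, 10.5% and 14.1% at 22 months. The 14.1% includes 2.26% from AS-tDR-013797 and 1.25% from AS-tDR-009224, both listed in that library only. The ages overlapped for Glu-TTC-1 alone and for the IDs shared with Glu-CTC, but not for the other 3 groups. Of all single tested IDs, 19.4% did not overlap and were higher and 20% lower in CPM. No such share was computed for groups of IDs. These parts sum to the whole and are given with no test. Between a young and an aged library, 12.6% of Glu-TTC tags on average fell under a different ID (9 pairs, from 5.86% to 17.3%). The figure was 8.12% between 2 young libraries (from 4.82% to 9.85%) and 9.44% between 2 aged ones (from 7.48% to 11%). The ranges overlap, and the pair with 5.86% was replicate 1 of each age.

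**Figure D5:**
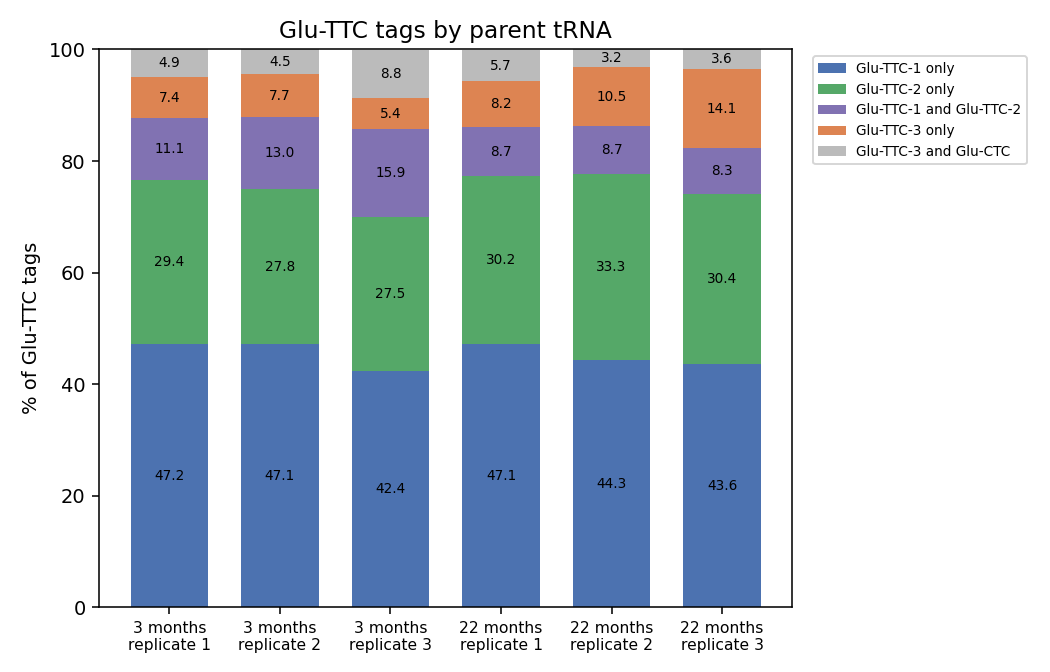
Percent of Glu-TTC tags by listed parent tRNA in each library, as stacked bars that sum to 100%. Glu-TTC-1 alone holds 42.4% to 47.2% in every library, and the part of the IDs common to Glu-TTC-1 and Glu-TTC-2 is 11.1% to 15.9% at 3 months and 8.34% to 8.74% at 22 months.

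Across libraries the summed Glu-TTC level was most like single fragments of other tRNAs that were lowest in the same library, 22 month replicate 3. Among 257 IDs outside glutamate and above 0 in all 6 libraries, the highest Pearson correlations of log2 CPM with the sum over the 6 libraries were 0.929 for AS-tDR-008372 of Gln-CTG, 0.928 for AS-tDR-010792 of Arg-CCT and 0.925 for AS-tDR-010799 of Tyr-GTA. They are given as a description, since all values share the same libraries and scaling. In 22 month replicate 3 these 3 IDs were at 640, 834 and 542 CPM, the lowest of the 6 libraries for each, as was the Glu-TTC sum at 23331. The part that library has in the results was not tested beyond leaving it out.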

How the data were processed

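Per the labels' protocols, total RNA was extracted with Trizol and read singly on an Illumina NextSeq. Per the submitters' processing notes, FastQC, cutadapt and Novoalign were used with genome build mm10. How tags were assigned to tDR IDs, with which program and mismatches, and which counts were listed is not given in the sources used here. As deposited by the authors, the table holds a count of tags for each ID, repeated on every one of its parents' lines (3257 in all), so each of 591 IDs was taken once. The title calls the table normalized, but the values are whole numbers with unequal totals and were treated as raw counts. Column names Age and WT, numbered 1 to 3, were read as 22 and 3 months, replicates 1 to 3.

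All IDs were fitted with edgeR 4.0.16 in R 4.3.3 (quasi-likelihood test, TMM, filterByExpr, minimum count 10), and p-values were adjusted by Benjamini-Hochberg over 439 IDs. CPM are TMM-scaled and relative to the tags of those IDs. Standard errors are the log2 difference over the square root of F. Shares were compared by exact permutation (scipy 1.17.1). Alternatives were other scalings, DESeq2 1.42.0, no filter, a replicate block, single libraries left out and IDs above 0 in all libraries. The edgeR script was tested on 5 sets of simulated data. Among tested IDs it called 55% of 4-fold changes, 12.7% of 2-fold changes and 1.19% of unchanged IDs. A count of 0 members called therefore does not show that the members were unchanged. Chi-square over degrees of freedom between replicates of an age was above sampling noise in every pair. It lay between 6.6 and 10.2 at 3 months and was 16.9 between 22 month replicates 1 and 2. The pairs of 22 month replicate 3 with replicates 1 and 2 gave 54.8 and 59.7. That library listed 373 IDs, and the others between 413 and 463.

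Members and lists were chosen with earlier results of these data known. Named members are the 6 most abundant and up to 3 with the largest positive and negative log2 differences among those tested; others are named to complete the account.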

Additional observations from a re-analysis of the deposited data

How the results depend on the processing

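No member passed edgeR's test in the reported fit. The count of members past the threshold was 1 with DESeq2's size factors (AS-tDR-000586), 2 among IDs above 0 in all 6 libraries (AS-tDR-000586 and AS-tDR-007221), and 0 in the other 10. In 7 of those 10 no ID of the whole table passed (library size only, no filter, the replicate block, and the fits without 3 month replicate 1, 2 or 3 or 22 month replicate 1), so the 0 there says nothing of the members. With 1 library left out, whichever it was, between 0 and 14 IDs of the table passed, against 29. Signs changed 13 times among 8 of the 17 tested members. For those described library by library they were AS-tDR-001267 at 0.02 and AS-tDR-001266 at 0.07 without 3 month replicate 2, AS-tDR-001267 at 0.15, AS-tDR-001266 at 0.19 and AS-tDR-007301 at 0.05 without 22 month replicate 3, and AS-tDR-001271 at -0.06 with library size only. The other 7 were in AS-tDR-000584, AS-tDR-000600, AS-tDR-001270 and AS-tDR-007339, the last from -0.01 to 0.34 without 22 month replicate 3. The cause was not tested. With 1 library left out, these differences lay between -0.15 and 0.15 for AS-tDR-001267, -0.20 and 0.19 for AS-tDR-001266 and -0.39 and 0.05 for AS-tDR-007301. With 1 library left out, the difference in the Glu-TTC share of listed tags lay between -0.807 and -0.0915 percentage points, that in the share of glutamate tags between -13.9 and -6.81, and the part of Glu-TTC tags placed under a different ID between 11.3% and 14.6%. Same-numbered libraries did not deviate together (correlations of -0.457, 0.0355 and -0.34 over tested IDs, for numbers 1, 2 and 3), so the numbers are not taken as pairs. Among differently numbered libraries, 3 month replicate 3 with 22 month replicate 1 gave 0.437. For 3 month replicate 1 with 22 month replicate 3 it was 0.373, and the rest lay between -0.0685 and 0.0326. Deviations were taken from the mean of the 3 libraries of an age, so these correlations depend on one another. The cause of the correlations was not tested. With the number as a replicate block, 0 of 439 IDs passed against 29 without it, and 0 members in either. With paired sign flips the share of glutamate tags gave an exact p = 0.25 and the share of listed tags 0.5. Without the IDs of Glu-CTC-3-1, an alternative chosen after seeing the data, the share of glutamate tags differed by -9.74. Listing minimums and listed totals, both higher in tags in every 22 month library than in any 3 month one, limit what can be said of members with few tags.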
